A study of Arabidopsis thaliana with 4 samples.

Results

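Transcript levels in leaves of unwounded opr3 plants of Arabidopsis thaliana were compared with those in leaves of unwounded wild type (wt) plants. The comparison rests on 2 of the 4 arrays of the series, namely opr3 control and wt control, with 1 array each. The other 2 arrays, opr3 and wt harvested 2 h after other leaves were crushed with tweezers, give the same line comparison after wounding and share no array with the control pair. All plants were 6 weeks old and were kept at 21 °C, in the light for 10 h and in the dark for 14 h a day. The labels give neither the accession background of the lines, nor the opr3 allele, nor the number of plants behind an array. The opr3 wounded sample carries a treatment text that speaks of wt plants, and the title decided its group here. Single arrays give no spread between plants, so no difference below was tested, and the number of arrays limits the precision. In whole-leaf RNA, fewer cells of a type and less RNA per cell cannot be told apart.

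OPR3 encodes the peroxisomal 12-oxophytodienoate reductase, which reduces the cyclopentenone OPDA on the way to jasmonic acid. Conjugated to isoleucine, jasmonic acid binds the receptor COI1, which leads to the breakdown of JAZ repressors and frees transcription factors such as MYC2 to switch on wound and defence genes. Plants that lack OPR3 make little jasmonic acid but can still make OPDA, and jasmonate signalling and salicylate signalling are known to restrain each other in leaves. The annotation names no probe set OPR3, and the mutated gene's own level was not analysed here; neither were the JAZ repressors, of which none of 12 was named.

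Values are log2 expression per probe set, a group of short oligonucleotides designed against a transcript; 503 probe sets are paired with several genes, and no gene was named from those. Of 22746 plant probe sets, 14599 reached a log2 value of 4.73 in at least 1 of the 4 arrays and were used, the weakest at 4.73008 and the strongest of those left out at 4.72989. Higher and lower below mean that the lines differed by at least 2-fold, a log2 difference of 1, where counts are given. Folds are given with the word about where 1 of the values compared lay under 4.73, near background. In opr3 controls 61 probe sets (0.418% of those used) were higher and 84 (0.575%) lower than in wt controls. The named genes among them number 32 higher (0.406% of 7876) and 22 lower (0.279%). The central 95% of all differences lay between -0.56 and 0.46, with a median of -0.04. None of 64 array controls differed by 2-fold (range -0.56 to 0.41), and the control probe sets for actin, GAPDH and ubiquitin lay between -0.29 and 0.12. In 8 probe set pairs for spiked-in bacterial transcripts, the 5' end read lower than the 3' end, with a mean log2 difference of -1.27 in opr3 control and -1.16 in wt control, and of -1.29 in opr3 wounded and -2.00 in wt wounded. The 2 control arrays had a Pearson correlation of 0.988, taken across probe sets, which are no replicates of each other.

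**Figure D1:**
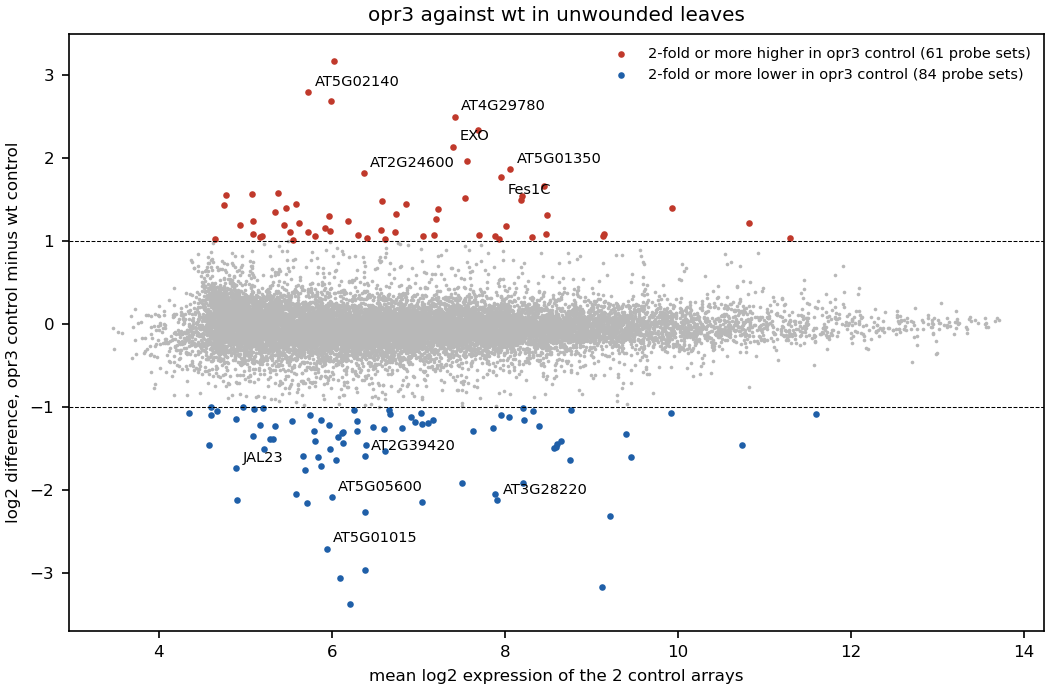
Each point is 1 of 14599 probe sets, with the mean log2 expression of the 2 control arrays on the horizontal axis and the log2 difference, opr3 control minus wt control, on the vertical axis. The 61 red points above the upper dashed line are at least 2-fold higher in opr3 control and the 84 blue points below the lower line at least 2-fold lower, and they occur at low and at high expression.

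The wounded pair gives the same comparison of the lines on arrays of its own. Of the 61 probe sets higher in opr3 controls, 10 were also at least 2-fold higher in wounded opr3 than in wounded wt, 1 was lower and the other 50 differed by less than 2-fold there. Of the 84 lower in opr3 controls, 41 were lower after wounding as well, 19 were higher and the remaining 24 differed by less than 2-fold. The probe sets shared by the pairs were 16.4% of those higher in controls and 5.13% of the 195 higher after wounding (1.34% of those used). On the lower side they were 48.8% of those lower in controls and 16.9% of the 242 lower after wounding (1.66%). Across all probe sets the differences of the control pair and of the wounded pair had a Pearson r of 0.23 and a Spearman rho of 0.11, given as a description over probe sets that share these 4 arrays. The sign was the same in both pairs for 48 of the 61, whose median difference after wounding was 0.36, and for 56 of the 84, whose median after wounding was -0.97; over all probe sets used it was 0.00. The share with the same sign among all probe sets used was not counted. For most of these 61 and 84 probe sets the wounded pair had the same direction, at a smaller size on the higher side. On the lower side, 19 passed the limit in the opposite direction. The probe sets were chosen by their control differences, so a smaller size in the other pair cannot be read as a result.

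**Figure D2:**
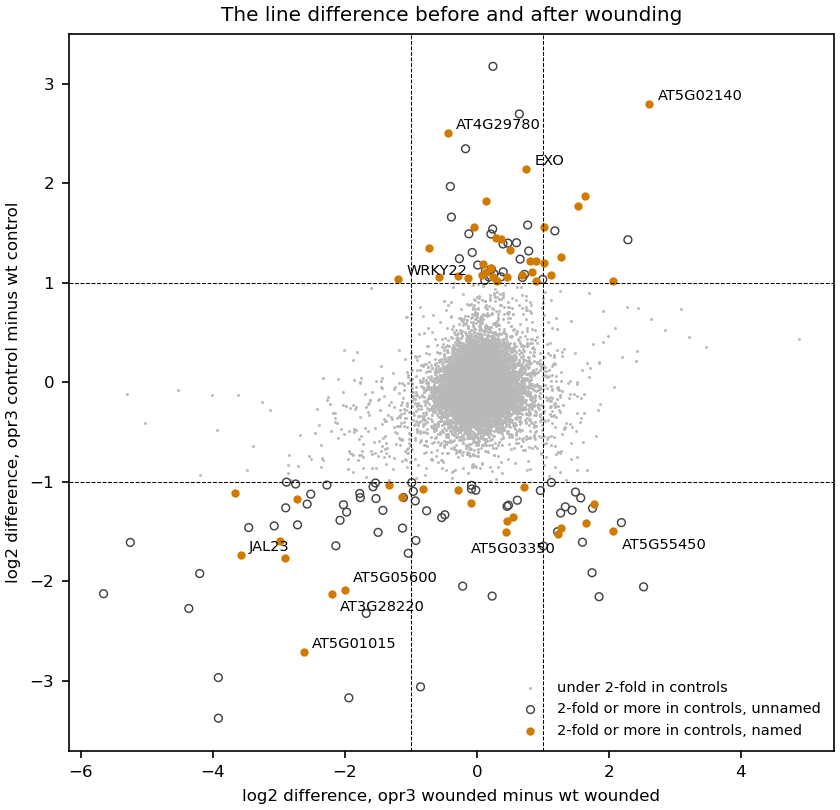
Each point is a probe set, with the log2 difference opr3 wounded minus wt wounded on the horizontal axis and opr3 control minus wt control on the vertical axis; dashed lines mark 2-fold. Filled points are named genes and open circles unnamed probe sets past 2-fold in controls. AT5G02140 and AT5G01015 lie at nearly equal values in both pairs, AT4G29780 and EXO differ mainly in controls, and AT5G55450 is lower in opr3 controls and higher in wounded opr3.

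Genes of the kind that plants switch on within minutes of touch, elicitors or cold were among those higher in opr3 controls. Of 47 genes written in 2 lists of rapid stress genes, 15 were measured, and 10 of these were at least 2-fold higher and none lower, where 0.406% of all named genes were higher and 0.279% lower. AT1G33760 entered only through its opr3 control value, which fixed its direction. Without it, 9 of 14 were higher and the other 5 lay within 2-fold, with all 14 above 0 and a median of 1.08, against -0.04 for all named genes. The lists were written with earlier results of these data known, so these counts are a description. AT4G29780 was at 8.67 in opr3 control, against 6.17 in wt control (5.64-fold), and at 6.77 in opr3 wounded, against 7.21 in wt wounded. The opr3 control array was the highest of the 4 for this gene, and wt wounded lay above wt control. EXO, which encodes EXORDIUM, a brassinosteroid-responsive promoter of cell expansion, was at 8.47 in opr3 control and 6.33 in wt control (4.40-fold), and at 7.14 in opr3 wounded and 6.39 in wt wounded. AT2G24600, an ankyrin repeat gene, stood at 7.28 in opr3 control but between 5.45 and 5.59 in the other 3 arrays. AT1G33760, of the ERF family of transcription factors, had 5.55 in opr3 control and lay between 3.92 and 4.0, under the filter level, in the other 3.

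The named regulators of this group differed less. WRKY53, a transcription factor of leaf senescence and defence, was at 7.29 in opr3 control and 6.18 in wt control (2.15-fold), and at 6.76 and 5.92 in opr3 wounded and wt wounded. STZ, a zinc finger repressor of the abiotic stress response, was at 8.84 in opr3 control and 7.79 in wt control (2.07-fold), with 8.15 in opr3 wounded and 8.28 in wt wounded. For WRKY22, which acts downstream of the flagellin receptor, the lines changed places: 6.92 in opr3 control against 5.88 in wt control, and 5.52 in opr3 wounded against 6.71 in wt wounded. WRKY6 differed by 0.12, and the further named WRKY genes, WRKY47 and WRKY20, by 0.19 and -0.17.

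PUB23 belongs to a set of plant U-box ubiquitin ligases, with PUB22 and PUB24, that dampen immune signalling. It was at 6.02 in opr3 control and 4.66 in wt control (about 2.55-fold), and at 5.04 in opr3 wounded and 5.77 in wt wounded. PUB24 and PUB22 lay within 2-fold at 0.44 and 0.14, and over the 8 PUB genes measured the differences ran from -0.88 (PUB19) to 1.35 (PUB23) with a median of 0.25. AT1G05575 was at 6.30 in opr3 control and 4.86 in wt control (2.73-fold), while both wounded arrays lay under the filter level at 4.39 in opr3 and 4.1 in wt. AT1G69890 was at 7.41 in opr3 control and between 6.06 and 6.57 in the other 3 arrays. AT1G77640, of the ERF family, AT5G17350 and AT2G39650, which are in no list, showed the same arrangement. Their opr3 control values were 6.27, 6.04 and 6.50, which is 2.15-fold, 2.29-fold and 2.22-fold over wt control, and in the wounded pair the lines differed by 0.14, 0.09 and 0.21.

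**Figure D3:**
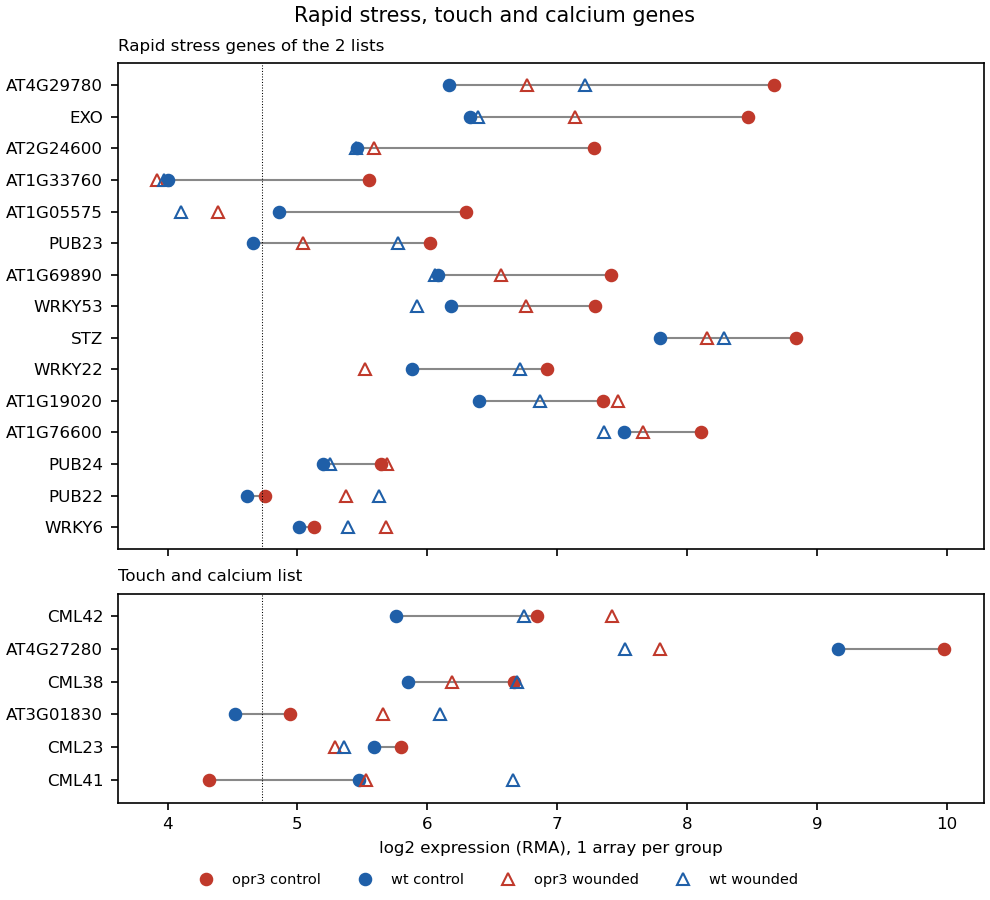
Each row is a gene of the rapid stress lists (upper panel) or of the touch and calcium list (lower panel), and each symbol its log2 expression in 1 array; red is opr3, blue is wt, filled circles are controls, open triangles wounded plants, and the dotted line is the filter level of 4.73. In the upper panel the opr3 control value lies right of the wt control value in all 15 rows, while the triangles lie in mixed order.

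Most of the calmodulin-like calcium sensors and other touch genes measured differed by less than 2-fold. Of 15 written, 6 were measured, with 1 higher, 1 lower and a median of 0.62, where 0.406% of all named genes were higher and 0.279% lower. Of the 6, 5 were above 0 and 1, CML41, was below. CML42, a sensor known from trichome branching and herbivore defence, was at 6.84 in opr3 control and 5.76 in wt control (2.11-fold), and at 7.42 in opr3 wounded and 6.74 in wt wounded. CML41, which localises to plasmodesmata, was at 4.32 in opr3 control and 5.47 in wt control (about 2.22-fold lower) and at 5.53 in opr3 wounded and 6.66 in wt wounded (2.19-fold lower). For CML41 the line difference was thus nearly the same in both pairs. CML38 and the EF-hand gene AT4G27280 each differed by 0.82 in controls, under the limit, and by -0.50 and 0.27 after wounding.

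Cell wall and growth genes other than EXO lay mostly under the limit. The pectin methylesterase gene ATPMEPCRB was at 6.34 in opr3 control and 5.27 in wt control (2.09-fold), against 5.62 in opr3 wounded and 5.37 in wt wounded. The 4 xyloglucan endotransglucosylase genes measured had differences from 0.00 (XTH32) to 0.72 (XTH18), with a median of 0.53. XTH33 (0.36) entered only through its opr3 control value, which fixed its direction, and it counts in that median. Among 9 expansin and expansin-like genes the median was -0.02, and EXLA1 was highest at 0.92 in controls and 1.26 after wounding. The 6 genes of the auxin families IAA and GH3 had a median of 0.37, with IAA31 at 0.85, IAA29 at 0.82 and WES1, an auxin-conjugating enzyme gene, at -0.27; none passed the limit. IAA31 and GH3.17 entered only through their opr3 control values (4.87 and 4.79), which fixed their direction, and both count in this median. The level of IAA31 was near background in wt control (4.03), so its difference is approximate.

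Of the named genes higher in opr3 controls that lie neither at the start of chromosome 5 nor in the plastid genome, the remaining ones were at most 2.33-fold higher. Among these were AT5G52050, a DTX-type efflux carrier gene known as DTX50 (about 2.08-fold), AT4G37220, of the WCOR413 cold acclimation family (2.11-fold), and AT3G02840, of the ARM repeat family (about 2.03-fold). AT5G39020, of the malectin-domain receptor kinases, and AT1G02360, of the chitinase family, were 2.33-fold and 2.02-fold higher in controls, with log2 differences of 0.81 and 0.89 after wounding. AT2G25735 and AT4G36500 were 2.1-fold and 2.08-fold higher in controls, with differences of -0.29 and 0.45 after wounding. AT2G32160 was at 5.53 in opr3 control and 4.33 in wt control (about 2.29-fold) and at 5.07 in opr3 wounded and 4.06 in wt wounded (about 2.02-fold), so it was higher in both pairs.

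A few genes at the start of chromosome 5 separated the lines in both pairs. The labels do not say whether the lines share their accession background, so at this stretch the opr3 mutation and the background of the line cannot be told apart. Among the 56 named probe sets from the first gene of the chromosome to AT5G02500, a stretch of 158 protein-coding genes in the gene table that was chosen after the values were seen, 7 (12.5%) were past the limit in controls. Over all 7972 named probe sets, 0.401% were higher and 0.276% lower. The share past the limit was 0.331% for the other protein-coding genes of chromosome 5 (6 of 1814 probe sets) and 0.634% on chromosomes 1 to 4 (38 of 5989). Past the limit in the same direction in both pairs were 5 higher and 1 lower in the stretch, 1 lower on the rest of chromosome 5, and 1 higher and 8 lower on chromosomes 1 to 4.

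AT5G02140, of the thaumatin family, was at 7.13 in opr3 control and 4.33 in wt control (about 6.93-fold), and at 6.89 in opr3 wounded and 4.28 in wt wounded. Both wt arrays lay under the filter level, and both opr3 arrays well over it. Next to it in gene order stand Fes1C, named after a family of nucleotide exchange factors for HSP70, AT5G02160 and AT5G02170, of the amino acid transporter family. Fes1C was at 8.84 in opr3 control and 7.07 in wt control, and at 8.43 in opr3 wounded and 6.89 in wt wounded. For AT5G02160 the values were 11.44 in opr3 control and 10.22 in wt control, and 10.91 in opr3 wounded and 10.01 in wt wounded, a difference of 0.90 after wounding. AT5G02170 had about a 2.95-fold difference in controls and about 2.02-fold after wounding. These 4 genes are numbers 123 to 126 of the protein-coding genes from the start of the chromosome. Number 122, NDP1, was at -0.50 in controls and number 127, AT5G02180, at 0.11.

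Further genes of the stretch were AT5G01350, at 9.00 in opr3 control against 7.13 in wt control and 8.79 in opr3 wounded against 7.15 in wt wounded, and AT5G02480, of the HSP20-like chaperones, 2.12-fold higher in controls and 2.18-fold after wounding. AT5G01015 was the lowest named gene of the comparison, at 4.58 in opr3 control against 7.29 in wt control (about 6.55-fold lower) and 4.47 in opr3 wounded against 7.08 in wt wounded (about 6.13-fold lower). TBL35 (0.87 and 0.69) and AT5G01670 (0.80 and 0.81) were higher in opr3 in both pairs but under the limit. Of the 56 probe sets the median difference was -0.02, so most genes of the stretch did not differ by the limit.

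**Figure D4:**
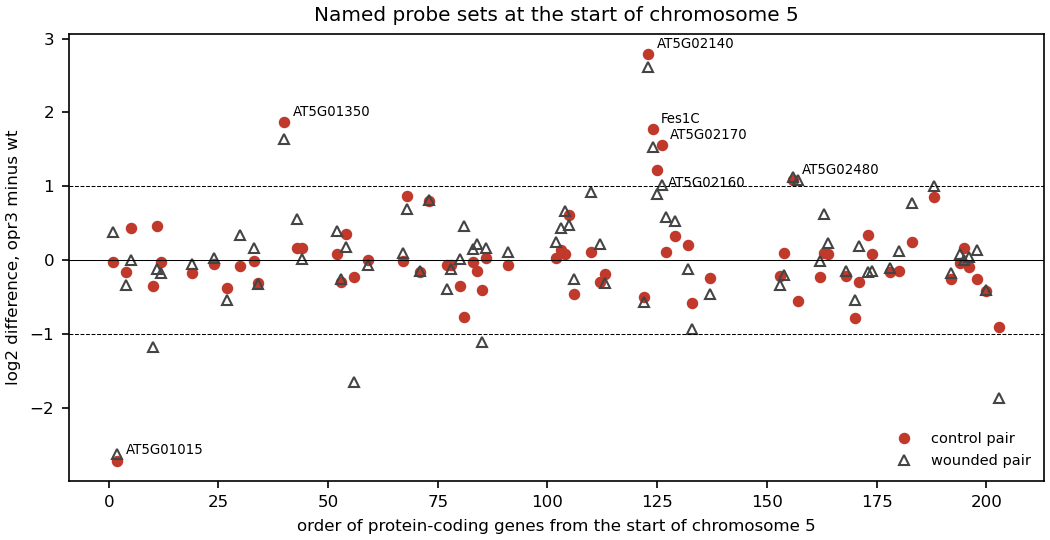
Named probe sets at the start of chromosome 5 are placed by the order of protein-coding genes (horizontal axis), with the log2 difference opr3 minus wt on the vertical axis; filled circles are the control pair and open triangles the wounded pair. The plot runs past gene 158, the last of the stretch, to show the genes after it. At the 7 labelled genes, past 2-fold in controls, circle and triangle lie on the same side of 0, and most other probe sets lie between the dashed 2-fold lines.

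Few plastid-encoded transcripts passed the limit in controls, though a larger share than among all named probe sets. By the 2-fold limit, 3 of the 69 measured were higher and none was lower, where 0.401% of all named probe sets were higher and 0.276% lower. Of the 69, 58 were above 0, with a median of 0.28 against -0.04 for the other 7903 named probe sets. The gene rpl20, for a ribosomal protein, was at 7.57 in opr3 control and 6.13 in wt control (2.71-fold), ycf3, for a photosystem I assembly factor, at 7.84 and 6.57 (2.40-fold), and rpoB, for a subunit of the plastid RNA polymerase, at 7.12 and 6.10 (2.03-fold). By function the medians ran from 0.18 for 6 ATP synthase genes and 0.19 for 15 photosystem II genes, through 0.24 for 15 ribosomal protein genes, 0.29 for 6 cytochrome b6f genes and 0.31 for 10 NDH genes, to 0.43 for 5 photosystem I genes and 0.65 for 4 RNA polymerase genes. In the wounded pair the 69 probe sets had a median of 0.66 with 26 at least 2-fold higher in opr3, where 1.27% of all named probe sets were higher and 1.18% lower. The largest of these differences, 4.88 for psaA, lay in a low wt wounded value. That gene was at 7.27 in wt wounded, 12.15 in opr3 wounded, 11.87 in wt control and 12.31 in opr3 control. The wt wounded array stood lowest in the spiked-in end comparison (-2.00), and its part in the differences of the wounded pair was not tested. Of 26 nuclear photosynthesis genes 4 were measured, RCA (0.01), LHCB4.1 (0.01), LHCB4.2 (0.02) and PRK (-0.07), with a median of 0.01 and opr3 control levels from 12.58 to 13.57. These are defining genes of green leaf tissue, and all 4 were strongly expressed. The 11 plastid probe sets with a mean control level of 12 or more had a median of 0.08, from -0.30 to 0.43. Whether nuclear and plastid genes of that level differ was not tested.

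Some wound and jasmonate genes were lower in unwounded opr3. Of 32 genes written in the lists of jasmonate response and jasmonate turnover, 14 were measured; 6 were at least 2-fold lower, 8 lay within 2-fold and none was higher, where 0.279% of all named genes were lower. In 4 of the 14, JMT, JRG21, BSMT1 and THI2.1, both control values lay under the filter level, and these genes entered only through wounded wt. Without them, 6 of 10 were lower, with all 10 below 0 and a median of -1.50, while the median of all 14 was -0.74. Among the 6 lower genes was GRX480, a salicylate-induced gene that was 1.36-fold higher in opr3 after wounding. The lists were written with earlier results of these data known. AT3G28220, of the TRAF-like family, was at 6.84 in opr3 control and 8.97 in wt control (4.37-fold lower), and at 8.53 in opr3 wounded and 10.73 in wt wounded (4.59-fold lower). The wounded opr3 plants thus stayed under the level of unwounded wt. AT5G05600, a jasmonate oxidase that inactivates jasmonic acid by hydroxylation, was at 4.95 in opr3 control and 7.04 in wt control, and at 9.08 in opr3 wounded and 11.08 in wt wounded. Its line difference was 4.26-fold before and 3.99-fold after wounding.

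For other genes of this group the line difference was larger after wounding. AT3G51450, of the strictosidine synthase-like family, was 3.40-fold lower in opr3 controls (4.80 against 6.57) and 7.54-fold lower in wounded opr3 (7.76 against 10.68). JAL23, a jacalin-related lectin gene, was about 3.33-fold lower in controls (4.03 against 5.76) and 11.9-fold lower after wounding (6.07 against 9.65). AT2G39420, a monoacylglycerol lipase family gene, was 3.03-fold lower in controls (5.58 against 7.18) and 7.88-fold lower after wounding (6.47 against 9.45). AT2G43550, of the defensin-like family, and AT1G62660, a vacuolar invertase gene, are in neither list; they were 2.15-fold and 2.26-fold lower in controls and 12.7-fold and 6.63-fold lower after wounding. AT1G52000, of the jacalin lectin family, was 2.05-fold lower in controls and 2.51-fold after wounding.

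Other members of these lists lay within 2-fold in controls. The transcription factor genes MYC3 and MYC4 differed by -0.38 and -0.42, and the plant defensin gene PDF1.2 by -0.71. AT2G38240, a jasmonate oxidase gene like AT5G05600, differed by only -0.08 (5.20 in opr3 control, 5.28 in wt control), although the lines differed by -4.53 after wounding. Of the synthesis genes, OPCL1 was at -0.27 and AIM1, a peroxisomal beta-oxidation gene, at -0.11.

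**Figure D5:**
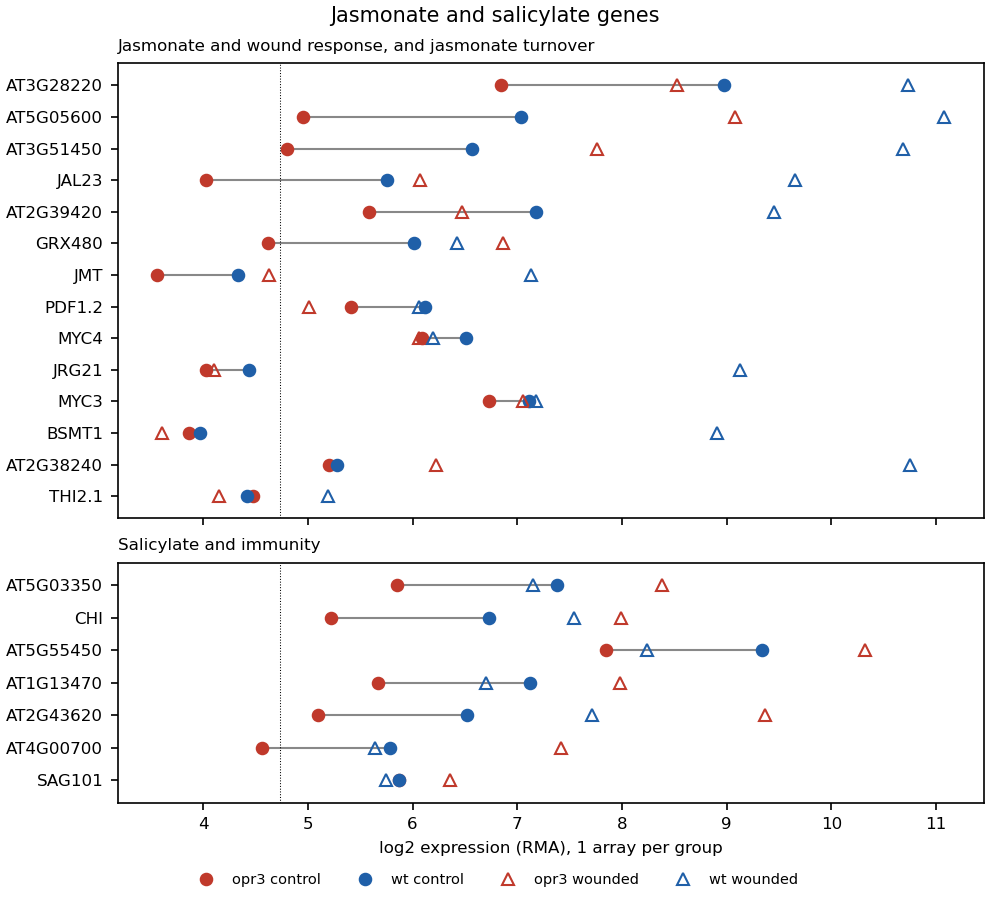
Rows are genes of the jasmonate response and turnover lists (upper panel) and of the salicylate and immunity list (lower panel), and symbols their log2 expression in each array; red is opr3, blue is wt, filled circles are controls, open triangles wounded plants, and the dotted line is the filter level of 4.73. The 5 uppermost genes, AT3G28220 to AT2G39420, have red left of blue in both pairs, whereas 6 of 7 salicylate genes have red left of blue in controls and the red triangle right of the blue in wounded plants.

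Salicylate and immunity genes were also lower in opr3 controls but not after wounding. Of 23 written members 7 were measured and 6 were at least 2-fold lower in controls, where 0.279% of all named genes were lower. The median was -1.46, against -0.04 for all named genes; this list too was written with earlier results known. AT5G55450, of the lipid-transfer family, was at 7.85 in opr3 control and 9.34 in wt control (2.8-fold lower), and at 10.32 in opr3 wounded and 8.24 in wt wounded (4.21-fold higher). AT5G03350, a legume lectin family gene, was at 5.85 in opr3 control and 7.38 in wt control, and at 8.38 in opr3 wounded and 7.15 in wt wounded. AT1G13470 was 2.74-fold lower in controls and 2.42-fold higher in wounded opr3, and AT4G00700, of the C2-domain family, about 2.33-fold lower and 3.44-fold higher. For these genes opr3 control was the lowest and opr3 wounded the highest of the 4 arrays.

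The chitinase genes AT2G43620 and CHI were part of this group, whereas AT1G02360, of the chitinase family, was 2.02-fold higher in opr3 controls. AT2G43620 was at 5.10 in opr3 control and 6.52 in wt control (2.67-fold lower), and at 9.37 in opr3 wounded and 7.71 in wt wounded (3.16-fold higher). CHI was at 5.22 in opr3 control and 6.73 in wt control (2.84-fold lower), and at 7.99 in opr3 wounded and 7.54 in wt wounded. SAG101, a partner of the immune regulator EDS1, was at 5.87 in both control arrays. GRX480, a salicylate-induced glutaredoxin that interacts with TGA factors and was written in the jasmonate list, was about 2.62-fold lower in opr3 controls (4.62 against 6.01) and 1.36-fold higher after wounding (6.86 against 6.42). AT1G05340 was about 2.56-fold lower in controls and AT4G28140, of the ERF family, about 2.07-fold, with differences of 0.55 and 0.71 after wounding. AT1G23850 was 2.31-fold lower in controls and at -0.09 after wounding.

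SWEET11, a sucrose exporter of the phloem loading pathway, was at 9.37 in opr3 control and 10.45 in wt control (2.11-fold lower), and at 9.58 in opr3 wounded and 9.86 in wt wounded. Over 8 measured SWEET genes the median was -0.11, with SWEET17 at -0.77 and SWEET13 at -0.63 next lowest and SWEET2 highest at 0.23. SWEET8 entered only through wt control, which fixed its direction, and it counts in this median. AGL19, a MADS-box gene of the flowering pathway, was about 2.11-fold lower, with opr3 control (3.81) and both wounded arrays (3.89 in opr3, 4.69 in wt) under the filter level; it entered only through wt control, which fixed its direction.

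Several further groups lay under the limit in controls. Of 23 glucosinolate genes 4 were measured, and AT1G54020 among them entered only through wounded wt. The other 3 had a median of -0.56; BCAT4, which starts methionine chain elongation, was nearest to the limit at -0.97 (8.93 in opr3 control, 9.90 in wt control), and UGT74B1 was at -0.56. Of 4 measured dehydration and cold genes, COR15A was at -0.85, LTI30 at -0.57, COR15B at -0.25 and COR47 at 0.04. Heat shock and folding genes other than Fes1C ran from -0.55 (Hsp70-2) to 0.28 (Fes1B), whereas in wounded opr3 Hsp70-2, Fes1A and AT5G48570 were higher than in wounded wt by 1.08, 1.2 and 1.52. None of 15 genes with a CYP symbol (median -0.07 in controls) and none of 23 UGT glycosyltransferase genes (-0.05) passed the limit. The CYP genes are cytochrome P450 genes except CYP59 and CYP71, which are cyclophilin genes and count in that median. The clock gene GI differed by 0.13, the only one of 21 clock genes that was named. Of 69 markers of guard cells, epidermis, phloem, xylem, root, flower, seed and dividing cells 3 were measured, the guard cell genes FMA (-0.24) and AT1G22690 (-0.14) and the trichome gene TRY (-0.15), and for 6 of the 8 marker lists no member was named.

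The annotation does not name 45.4% of the probe sets used. Unnamed were 29 of the 61 higher in opr3 controls (47.5%, near that share) and 62 of the 84 lower (73.8%). Probe set 245325_at was highest, at 7.62 in opr3 control and 4.44 in wt control (about 9.02-fold), with 4.72 in opr3 wounded and 4.47 in wt wounded, and 245757_at followed at about 6.47-fold. Lowest were 265058_s_at, at 4.52 in opr3 control and 7.90 in wt control (about 10.4-fold lower), and 259640_at, at 7.54 and 10.71 (9.01-fold lower). Of these 4, 245325_at was high in the opr3 control array alone and entered only through that value, which fixed its direction. Both lower probe sets were lower in opr3 after wounding as well. After wounding 265058_s_at was at 5.58 in opr3 and 9.50 in wt, and 259640_at at 10.76 in opr3 and 12.70 in wt.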

How the data were processed

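The deposited values are log2 expression values of ATH1 arrays, made by the authors with RMA and Partek (submitters' processing notes, which give no versions). Per the labels' protocols, 10 ug of total RNA was turned into biotin-labelled cRNA. The filter level was the 40th percentile of all values. Differences between single arrays were taken with pandas 2.3.3, and cyclic loess with limma 3.58.1. The steps were tested on simulated data. The platform annotation paired 13513 probe sets with 1 gene (13436 matched in the TAIR10.1 gene table), 503 with several, and did not list 8730. For genes with several probe sets the one with the highest mean was used. The members and lists were chosen with earlier results of these data known. Named genes were the 20 largest differences each way, all list members past 2-fold and up to 6 members per list; other genes were named after their values were seen. Of 390 loci written in 25 lists 77 were named and 71 used. Alternatives were other limits, filters, normalizations and probe set rules. No sequences were used here.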

Additional observations from a re-analysis of the deposited data

Results flagged for a closer look

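Genes that were at least 2-fold apart one way between the control arrays and at least 2-fold the other way between the wounded arrays are given here; the change of direction was not tested, since each value compares single arrays. AT5G03350 had a log2 difference, opr3 minus wt, of -1.53 in controls and 1.23 after wounding. For AT5G55450 the values were -1.49 and 2.07, for AT1G13470 -1.46 and 1.28, for AT2G43620 -1.41 and 1.66 and for AT4G00700 -1.22 and 1.78. WRKY22 went the other way, with 1.04 in controls and -1.19 after wounding.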

How the results depend on the processing

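No paired analysis was possible because each group has 1 array. With limits of 1.5-fold and 3-fold in place of 2-fold, 243 and 11 probe sets were higher in opr3 controls (61 in the main setting), 332 and 25 lower (84), 59 and 2 higher in both pairs (10), and 136 and 15 lower in both pairs (41). Where both control arrays had to reach the filter level, 6 were higher in both pairs. The other 35 values of these 4 counts lay within 1.5 times the main count, with 50 to 72 higher and 72 to 83 lower where filter or normalization changed them other than through both control arrays (47 and 62). Centring each array on its median gave 72 higher and 72 lower. Of the filters chosen after seeing the data, the level reached by the highest control array left the 4 counts as they were, and the level reached in 2 or more arrays gave 58 higher and 83 lower. Of the 54 named genes past 2-fold, each kept its sign under the 3 normalizations, and 4 came under 2-fold in at least 1 of them. The median of the jasmonate and wound list was -1.05 in the main setting, -0.71 with no filter on low values and -1.50 at the 60th percentile or with either added filter; that of heat shock genes moved to -0.04 where both control arrays had to reach the level. Without plastid and mitochondrial genes 58 were higher. Low values limit the folds of the 14 higher and 22 lower probe sets that had a control value under the filter level, since RMA draws low values together.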
